A study of Mus musculus with 8 samples.

Results

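Oligo2 is one of the oligodendrocyte clusters that the authors defined in single-cell RNA sequencing of mouse brain, and it was examined for differences between KO and WT mice. Its members were the cells with the value 2 in the deposited oligodendrocyte cluster column, which made 2382 of 12581 cells, 1275 from KO and 1107 from WT mice. The study removed the *Fire* enhancer, which lies within *Csf1r*, and such mice lack microglia while other macrophages of the brain remain. WT mice (mouse 1 and mouse 4) carried both copies of the enhancer and the mice labelled FIREdelta/delta KO (mouse 3 and mouse 6) carried none. All were females on a mixed CBA and C57Bl6J background, without further treatment, and the WT mice came from crosses of carriers of the deletion. Their age was 1 month plus 18 days for mice 1 and 3, and 2 days less, at 1 month plus 16 days, for the other pair. Each mouse gave a hippocampus library and a library labelled cortex, for which the methods name what was left of the left hemisphere. The deletion is in every cell of the animal, so oligodendrocytes carried it too.

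Oligodendrocytes wrap axons in myelin, a stack of membrane rich in cholesterol and galactolipids. Once mature they fall into states that differ in the genes for myelin, lipid handling and secreted factors, and in injured or ageing brain some of them express genes better known from the acute-phase response of the liver and from reactive astrocytes. Complement component C4, encoded in mice by *C4b*, and the protease inhibitor encoded by *Serpina3n* are among the best known of these. Microglia, the resident macrophages of the brain, depend on signalling through the CSF1 receptor.

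The cells of Oligo2 carried the transcripts of mature oligodendrocytes. Values are log2 of the normalised UMI count plus 1, where a UMI marks 1 captured RNA molecule, averaged over the cells of a library and then over both libraries of a mouse. In WT mice the mean value of *Mbp*, encoding myelin basic protein, was 5.38, and that of *Mag*, encoding a myelin adhesion protein, was 4.67. *S100b*, encoding a calcium-binding protein, averaged 1.08 ± 0.07 (SD, n = 2 mice) in Oligo2 against 0.14 ± 0.02 in Oligo3 and 0.08 ± 0.003 in Oligo4. *Ptgds*, encoding prostaglandin D synthase, was lowest in Oligo2, with 3.38 ± 0.67 in Oligo2, 7.28 ± 0.15 in Oligo3 and 6.93 ± 0.19 in Oligo4. These levels describe the clusters, which were drawn from the same values.

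Libraries held 201 to 441 Oligo2 cells, which was 15.8% to 25.7% of their oligodendrocytes, with 10202.5 to 14282.5 median UMIs per cell. Median UMIs averaged 12497.875 in KO and 12511.5 in WT mice (two-sided exact permutation test over mice, p = 1.00). For no single value can this test give a p under 0.33, with 2 mice per genotype. Oligo2 joined 2 finer clusters, of which the smaller held 32.6% ± 0.99 of Oligo2 cells in KO and 34.1% ± 0.61 in WT mice (SD, n = 2 mice each). The hippocampus library of WT mouse 4 stood apart from the other WT libraries. It held 10 of 214 Oligo2 cells with UMIs of both *C4b* and *Serpina3n* where the others had 0, and 6 Oligo1 cells where the others had 0. Oligo1, with 1552 KO and 6 WT cells, was separated from Oligo2 on the same expression values, so the KO cells described here are those left after Oligo1 was set aside. Of the Oligo2 barcodes, 6 occurred in more than 1 library.

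*Csf1r* followed the labelled genotypes. It had a UMI in 4.50% and 7.01% of Oligo2 cells in the hippocampus of WT mice 1 and 4, and in 5.41% and 10.9% in their cortex. In the hippocampus of KO mice 3 and 6 the shares were 0.227% and 0.604%. In KO cortex none of 276 cells of mouse 3 and none of 227 cells of mouse 6 had one, which allows shares of up to 1.09% and 1.32%. The matrix used here holds oligodendrocytes only, and no level of free RNA was set from another cell type.

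*C4b* and *Serpina3n* were higher in Oligo2 cells of KO mice, and they were the 2 genes called of 9292 tested. A gene was called at a Benjamini-Hochberg adjusted p under 0.05 from limma on the mean values of the 4 mice, and was tested if at least 5% of cells had a UMI. The calls made up 0.0215% of the genes tested. The median difference over all genes was 0.0001. At an unadjusted p under 0.05 there were 138 genes, 85 of them higher in KO mice. These are fewer than the 5% of genes that chance alone would give. This fit leaves out the pairing of the mice, and with a term for the pair 517 genes had an unadjusted p under 0.05. A gene that did not pass without that term may therefore still differ.

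*C4b* lies on chromosome 17 of GRCm38 from 34728380 to 34743882, on the minus strand. Its mean log2 value in WT Oligo2 cells was 0.034 and 0.15 in the hippocampus of mice 1 and 4, and 0.044 and 0.077 in their cortex. In KO Oligo2 cells it was 1.42 and 1.25 in the hippocampus of mice 3 and 6, and 0.83 and 1.03 in their cortex. Every KO library lay above every WT library. The difference was 1.05 with a standard error of 0.05 (limma, adjusted p = 1.81e-05), and the mean normalised UMI count was 27.5 times higher in KO mice.

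*Serpina3n* lies on chromosome 12 from 104406729 to 104414329, on the plus strand. In WT Oligo2 cells its mean log2 value was 0.027 and 0.11 in the hippocampus of mice 1 and 4, and 0.021 and 0.020 in their cortex. In KO Oligo2 cells it was 0.65 and 0.59 in hippocampus and 0.35 and 0.48 in cortex, for mice 3 and 6. The groups again did not overlap, and the WT library that held the 10 double-positive cells was the highest of its genotype. The difference was 0.47 with a standard error of 0.03 (limma, adjusted p = 0.000487), and the mean normalised UMI count was 17.8 times higher.

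Both genes have close relatives in the genome (*C4a*, and the other *Serpina3* genes), and how reads were assigned or lost among the copies was not examined. Both calls rested on limma's prior variance that depends on the mean: with 1 prior variance for all genes the adjusted p was 0.165 for *C4b* and 0.577 for *Serpina3n*. edgeR's quasi-likelihood test on summed UMIs, which called 4 genes (0.043%), gave an adjusted p of 0.00584 for each.

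The genotypes also differed in how many Oligo2 cells had a UMI of these genes. A *C4b* UMI was found in 3.44% (95% Clopper-Pearson interval 1.84 to 5.81) and 12.1% (8.09 to 17.3) of cells in the hippocampus of WT mice 1 and 4, and in 5.10% (2.94 to 8.14) and 7.96% (4.62 to 12.6) in their cortex. In KO mice 3 and 6 the shares were 58.3% (53.5 to 62.9) and 55.3% (49.8 to 60.7) in hippocampus, and 37.3% (31.6 to 43.3) and 52.9% (46.1 to 59.5) in cortex. The intervals cover counting error only. Over mice the share was 50.9% ± 4.44 in KO and 7.16% ± 4.09 in WT (SD, n = 2 mice each). The exact permutation test, two-sided, gave p = 0.33, its lowest possible value here.

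Cells with *C4b* also held more of it in KO mice. A *C4b*-positive cell carried 7.79 to 10.0 UMIs on average in the KO libraries and 1.46 to 3.19 in the WT libraries. At least 5 UMIs were found in 21.0% to 34.0% of KO cells and in 0.265% to 2.34% of WT cells. For *Serpina3n* the share with a UMI was 37.1% ± 4.33 in KO and 5.75% ± 3.22 in WT mice (SD, n = 2 mice each, exact permutation test, p = 0.33). Single libraries ranged from 23.2% to 44.9% in KO and from 2.49% to 13.6% in WT mice. With every cell thinned to 5000 UMIs, which left out 0 cells, the shares were 40.7% in KO against 4.02% in WT mice for *C4b*, and 25.1% against 1.82% for *Serpina3n*.

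**Figure D1:**
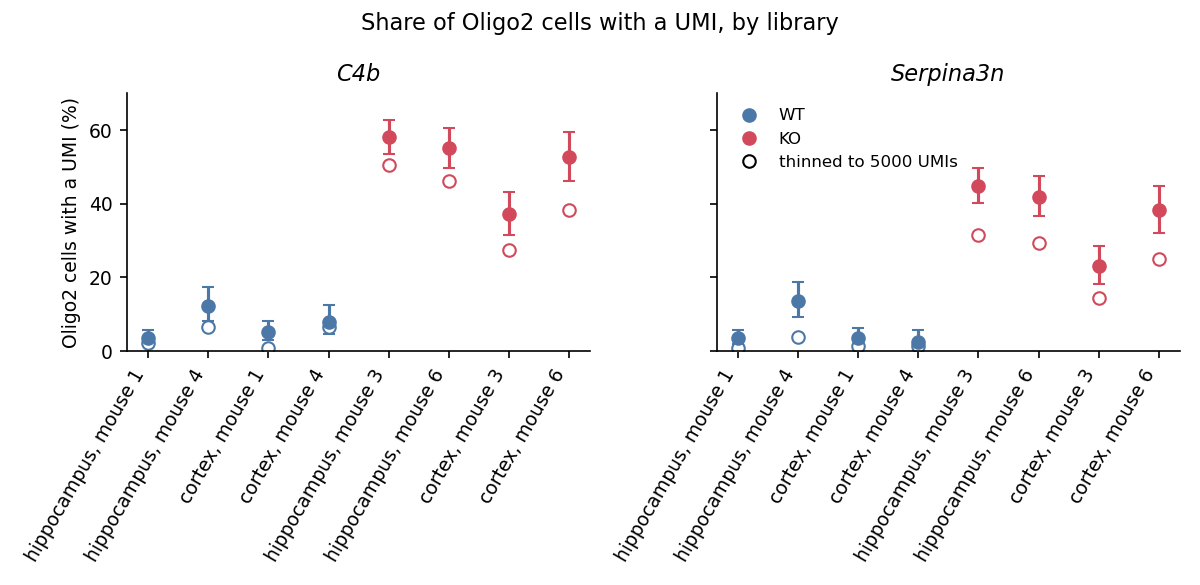
Share of Oligo2 cells with a *C4b* or a *Serpina3n* UMI (vertical axis, percent) in each library (horizontal axis); filled points are all UMIs with 95% Clopper-Pearson intervals, open points are cells thinned to 5000 UMIs. The 4 KO libraries sit between 37.3% and 58.3% for *C4b*, all above the WT libraries, of which the hippocampus of mouse 4 is highest at 12.1%.

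In KO mice the transcripts of both genes tended to lie in the same cells. In the hippocampus of mouse 3, 60.7% of *C4b*-positive Oligo2 cells had a *Serpina3n* UMI against 22.8% of the cells without *C4b*. The same shares were 63.4% and 15.5% in the hippocampus of mouse 6, 50.5% and 6.94% in the cortex of mouse 3, and 58.3% and 15.9% in the cortex of mouse 6. Depth was alike in both kinds of cell, with 10273 and 10164.5 median UMIs in the first of these libraries. In 3 of the 4 WT libraries no *C4b*-positive cell had a *Serpina3n* UMI, and in the hippocampus of WT mouse 4 there were 10 of 26. Cells with both made up 35.4% and 35.0% of Oligo2 in KO hippocampus and 18.8% and 30.8% in KO cortex, in mice 3 and 6.

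Leaving out the cells with both transcripts lowered the *C4b* difference to 0.44 (limma, adjusted p = 0.00052), and it was the only gene still called. The *Serpina3n* difference was then 0.065 and no longer passed (adjusted p = 0.682). That choice of cells uses both genes, so these values describe how the transcripts were spread and do not test it. In each of the 2 finer clusters of Oligo2 both genes were called. The *C4b* difference was 1.04 in the larger and 1.13 in the smaller, and that of *Serpina3n* was 0.43 and 0.59.

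The mice could be paired, since mice 1 and 3, and mice 4 and 6, shared age and the values of the batch column. With a term for the pair, 11 genes were called (0.118% of those tested), and all 11 were higher in KO mice. A fit of all 8 libraries with a term for batch and mouse as a random effect called 60 genes (0.646%), 46 higher and 14 lower. It treats the libraries of a mouse as nearly independent, since the correlation estimated within mice was -0.134, and all 11 genes of the pair fit were among the 60. The genes named next were the 12 in each direction with the smallest p among those with 1 sign in all 4 batches. Beyond *C4b* and *Serpina3n* none of them passed in limma without a pair or batch term.

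*Masp1*, encoding a serine protease of the lectin pathway of complement, stood beside *C4b* on the higher side. Its mean log2 values in hippocampus were 0.14 and 0.22 in WT mice 1 and 4 and 0.39 in both KO mice, and in cortex 0.097 and 0.14 in WT and 0.25 and 0.27 in KO mice. The difference was 0.18 with a standard error of 0.03 (adjusted p = 0.323, and 0.0457 with the pair term). Of 5 complement genes and regulators tested out of 17 listed, *C4b* alone passed, and 3 were higher in all 4 batches and 0 lower. The median difference was 0.18, that of *Masp1* itself. The C1q gene *C1qb*, listed with the microglial markers instead, was lower in all 4 batches. Over all genes 8.34% were higher and 8.05% were lower in all 4 batches. *Cd59a*, which with *C4b* and *Masp1* made up these 3 and encodes an inhibitor of the terminal complement complex, differed by 0.24 (adjusted p = 1.00, 0.436 with the pair term and 0.0242 with the batch term).

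*Cebpd*, encoding a transcription factor of the acute-phase response, had values of 0.037 and 0.044 in WT mice and 0.14 and 0.17 in KO mice. The difference of 0.11 (standard error 0.01) came with an adjusted p of 0.0555, and of 0.0335 with the pair term. The edgeR test on summed UMIs called it too (adjusted p = 0.00958). In the list of the gp130 receptor and its signal transducer STAT3, 0 of 12 tested genes passed. Of these 12, 5 were higher and 0 lower in all 4 batches, against 8.34% and 8.05% of all genes. *Stat3* itself differed by 0.19 (adjusted p = 1.00, 0.135 with the pair term and 0.00748 with the batch term), with 0.39 and 0.51 in WT and 0.61 and 0.66 in KO mice. The median of the list was 0.02.

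*H2-D1*, encoding a heavy chain of major histocompatibility complex class I, lies on chromosome 17 at 518.8 kb from *C4b*. It had mean values of 0.055 and 0.11 in WT and 0.19 and 0.27 in KO mice. They differed by 0.15 (standard error 0.03, adjusted p = 0.454, and 0.0335 with the pair term). How its reads were assigned or lost among near-identical class I genes was not examined. *Ifi27*, an interferon-inducible gene, differed by 0.22 (adjusted p = 1.00, 0.253 with the pair term and 0.0135 with the batch term). Of 8 interferon response and class I genes tested out of 26 listed, 0 passed. In all 4 batches 5 were higher, as were 8.34% of all genes. Among these 5, *B2m*, encoding the light chain of class I, differed by 0.05.

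*Klk6*, encoding a secreted protease made by mature oligodendrocytes, had values of 0.47 and 0.34 in WT and 0.76 and 0.75 in KO mice. The difference was 0.35 with a standard error of 0.05 (adjusted p = 0.146, and 0.0335 with the pair term). By batch it was 0.50 and 0.54 in hippocampus but 0.08 and 0.28 in cortex, in mice 3 and 6 against 1 and 4, where WT cortex began at 0.67 and 0.47. In the smaller of the finer clusters it was 0.70, and in the larger 0.21. *Sparc*, encoding a matrix glycoprotein, had values of 0.33 and 0.52 in WT and 0.71 and 0.78 in KO mice. They differed by 0.32 (standard error 0.06, adjusted p = 0.454, and 0.0335 with the pair term).

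The remaining higher genes were of varied function. *Tmem80*, encoding a membrane protein, differed by 0.19 with almost the same value in each batch, 0.17 to 0.21 (adjusted p = 0.0417 with the pair term). *Piezo2*, encoding a mechanically gated channel, differed by 0.17 (adjusted p = 0.0335 with the pair term). *Aldh1l2*, encoding a mitochondrial folate enzyme, differed by 0.15, *Rhoj*, encoding a small GTPase, by 0.067, and *Gfap*, encoding an intermediate filament of astrocytes, by 0.065, and these 3 did not pass with the pair term. The 11 genes of the pair fit also held 2 that the choice by p left out, *Htra1*, encoding a secreted serine protease, with a difference of 0.29 (adjusted p = 0.039), and *Gm47283*, with 0.18 and overlapping mice. The summed markers of astrocytes, 10 genes with *Gfap* among them, ranged from 4.05 to 4.71 per 10000 UMIs in WT libraries of Oligo2. In KO libraries they ranged from 4.10 to 4.69. The part of astrocyte RNA in the *Gfap* values was not tested.

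**Figure D2:**
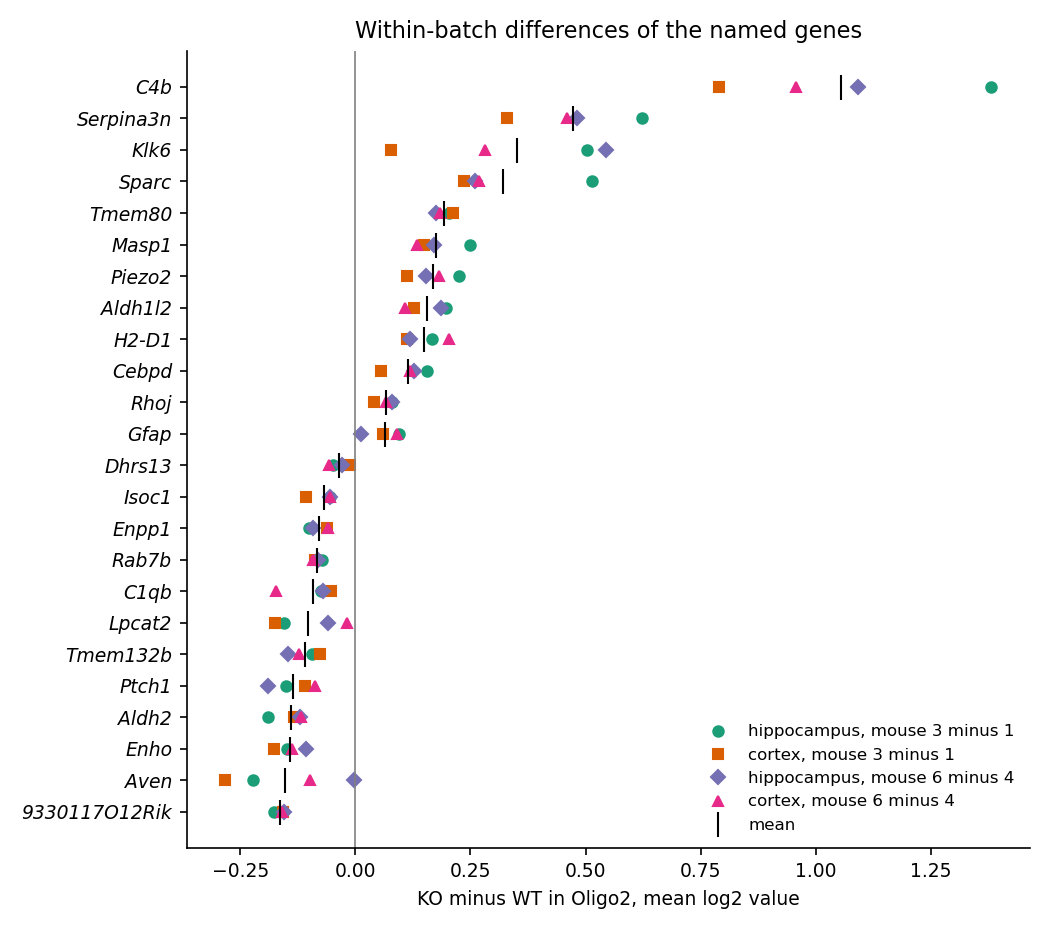
KO minus WT difference in mean log2 value in Oligo2 (horizontal axis) for the 24 named genes (vertical axis); each symbol is 1 batch, which holds 1 library of each genotype, and bars are the means. *C4b* lies between 0.79 and 1.38 and *Serpina3n* between 0.33 and 0.62, and *Klk6*, spread from 0.08 to 0.54, and *Sparc*, from 0.24 to 0.51, overlap with *Serpina3n*.

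Limma called no gene as lower in KO mice, with or without the pair term, where 53 genes were lower at an unadjusted p under 0.05. Among the 12 with the smallest p, *C1qb*, encoding a chain of the complement initiator C1q that is made by microglia, had a UMI in 7.96% to 21.4% of WT Oligo2 cells. In KO libraries the share was 0.227% in the hippocampus of mouse 3 and 0 in the other 3 libraries. *C1qb* therefore reached the filter only through the WT mice. The log2 difference was -0.09 (adjusted p = 0.257), and edgeR on summed UMIs called it (adjusted p = 0.00584). *Csf1r* was below the filter. Of 20 microglial markers 7 had no UMI in any KO library, namely *Tmem119*, *Cx3cr1*, *C1qc*, *Trem2*, *Fcrls*, *Siglech* and *Ly86*. The list summed to 4.97 to 8.24 per 10000 UMIs in WT and 4.57 to 5.28 in KO libraries. It holds *Sparc* and *Cst3*, which oligodendrocytes express as well, and the part of microglial RNA in these values was not tested.

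Other genes on the lower side had varied roles. *Aldh2*, encoding mitochondrial aldehyde dehydrogenase, had values of 0.36 and 0.29 in WT and 0.20 and 0.17 in KO mice, and *Enho*, encoding the secreted peptide adropin, had 0.44 and 0.38 against 0.28 and 0.26. Each differed by -0.14, with adjusted p = 1.00 for both, 0.122 and 0.163 with the pair term, and 0.00281 and 0.00422 with the batch term. *Ptch1*, encoding the Hedgehog receptor, differed by -0.13 (adjusted p = 1.00, 0.311 with the pair term and 0.0242 with the batch term). *Lpcat2*, a phospholipid acyltransferase gene, and *Enpp1*, an ectonucleotidase gene, differed by -0.10 and -0.08. *Rab7b*, encoding a small GTPase of the endosome, differed by -0.08.

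The gene 9330117O12Rik had batch differences of -0.18, -0.16, -0.16 and -0.16, with an adjusted p of 0.392, or 0.0533 with the pair term. *Isoc1* differed by -0.07, *Tmem132b* by -0.11, *Dhrs13* by -0.04, and *Aven*, encoding an inhibitor of apoptosis, by -0.15. The batch differences of *Aven* were -0.22 and -0.28 between mice 3 and 1, and -0.0036 and -0.099 between mice 6 and 4. *Aven* (adjusted p = 0.0815), *Dhrs13* (0.086) and *Lpcat2* (0.0736) did not pass with the batch term. Of the 12 lower genes, 9 passed with the batch term and 0 with the pair term. Of the 12 higher genes these counts were 12 and 9. The choice by p fixes much of these counts. In 12 of the 12 higher genes every KO library lay above every WT library, which held for 1.44% of all genes tested. In 10 of the 12 lower genes every KO library lay below, against 1.13% of all genes. The named genes were chosen by p and by direction in these same libraries, which favours such a separation. Their shares are therefore not a test against those of all genes.

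*Piezo2* and *Isoc1* lie on chromosome 18 at 1.88 and 2.42 Mb from *Csf1r*. Within 10 Mb of *Csf1r*, 62 genes were tested, of which 0 passed without a block and 2, these same genes, passed with the batch term. With the pair term *Isoc1* did not pass (adjusted p = 0.215). Alleles of the mixed background that are linked to the deletion and the deletion itself cannot be told apart in these mice.

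Genes of myelin and its lipids did not pass the test. Of 20 myelin protein genes 0 were called, 4 were higher and 2 lower in all 4 batches, and the median difference was 0.007. Over all genes 8.34% were higher and 8.05% lower in all 4 batches. *Cldn11*, encoding the tight junction protein of myelin, had the largest difference at 0.25 with a standard error of 0.16 (values of 4.68 and 4.79 in WT and 4.98 and 5.00 in KO mice). Of 27 cholesterol synthesis genes 0 were called, 1 was higher and 1 lower in all 4 batches, the median was 0.0075, and the differences ranged from -0.06 for *Sc5d* to 0.10 for *Msmo1*. Fatty acid synthesis (17 genes, median 0.02, *Scd2* lowest at -0.10) and sphingolipid and galactolipid synthesis (19 genes, median 0.001) likewise had 0 calls.

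Among 20 tested genes that mark oligodendrocyte subtypes 0 were called. In all 4 batches 5 were higher and 0 lower, against 8.34% and 8.05% of all genes. With the batch term *Klk6*, *Apod* and *Il33* passed, but with the pair term *Apod* (adjusted p = 0.598) and *Il33* (0.27) did not. *Apod*, encoding a lipid carrier, had values of 5.31 and 4.99 in WT and 5.57 and 5.29 in KO mice, a difference of 0.27 that was 0.21 to 0.30 in every batch. *Il33*, encoding an alarmin cytokine, differed by 0.14. For *Il33* the mice of 1 genotype lay further apart than the genotypes, with 0.59 and 0.23 in WT and 0.70 and 0.40 in KO mice. *Fth1*, encoding the heavy chain of the iron store ferritin, had values of 7.60 and 7.77 in WT and 7.94 and 7.90 in KO mice. The difference was 0.23 (standard error 0.05, adjusted p = 0.732, 0.48 with the pair term and 0.0129 with the batch term), and 3 of 11 iron genes were higher in all 4 batches.

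Other lists held no gene that passed without a block. Of 28 TGF-beta pathway genes 12 were tested, 0 were higher and 4 were lower in all 4 batches (*Tgfbr1*, *Smad5*, *Smad7* and *Ski*), and the median was -0.0095. None of these 4 passed with the pair or the batch term, and *Smad7*, encoding an inhibitor of the pathway, was lowest at -0.12. Growth factor receptors had 0 higher and 3 lower of 14. The unfolded protein and integrated stress response had 3 higher and 0 lower of 19, and heat shock genes 2 and 0 of 16. Immediate early genes had 1 higher and 0 lower of 7. *Jund* was lowest at -0.16, with batch differences of 0.16 and -0.72 between mice 3 and 1, in hippocampus and cortex, and -0.12 and 0.03 between mice 6 and 4. Lysosome genes had 2 in each direction of 25, and the 17 genes of axon contact had 1 higher and 3 lower, with *Ank3* at -0.16. Over all genes 8.34% were higher and 8.05% lower in all 4 batches.

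Single members of these lists changed with the pair of mice. *Sgk1*, a kinase gene that responds to glucocorticoids, had the largest difference of its list at 0.41 with a standard error of 0.27. It was -0.11 and -0.05 between mice 3 and 1, in hippocampus and cortex, and 0.83 and 0.96 between mice 6 and 4. *Ldhb*, encoding a lactate dehydrogenase subunit, was lowest of the glycolysis list at -0.30. Its batch differences were -0.05 and 0.10 in mice 3 and 1 and -0.55 and -0.69 in mice 6 and 4. *Serpinb1a*, of the serpins, differed by -0.30 (adjusted p = 1.00, 0.318 with the pair term and 0.0322 with the batch term). *Mif*, encoding a cytokine, differed by -0.28 (adjusted p = 1.00, 0.427 with the pair term and 0.043 with the batch term).

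**Figure D3:**
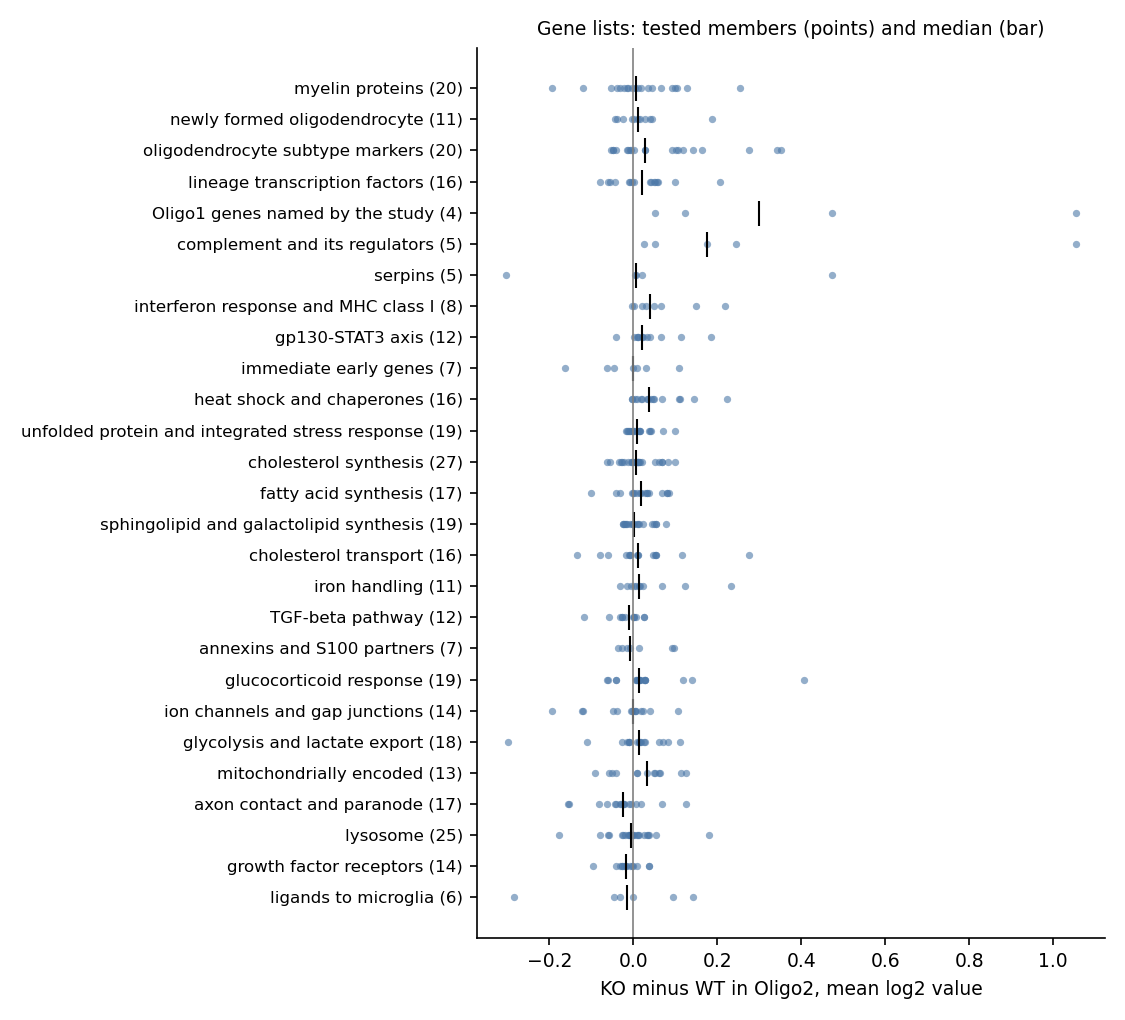
KO minus WT difference in mean log2 value in Oligo2 (horizontal axis) for the tested members of each gene list (vertical axis, number tested in brackets); points are genes and bars are list medians. The medians lie close to 0 apart from complement at 0.18 and the genes that the study named for Oligo1 at 0.30, and *C4b* is the gene at 1.05 in both.

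Genes that the study had named as typical of Oligo1 were chosen on these same mice and are not independent evidence. Of 10 such genes 4 passed the filter in Oligo2, 2 were called, and 4 were higher in all 4 batches, as were 8.34% of all genes. Beside *C4b* and *Serpina3n* these were *Trf*, encoding transferrin, with a difference of 0.12 and a standard error of 0.20, and *Snx10*, encoding a sorting nexin, with 0.053 and 0.014.

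The genotype difference in Oligo2 was then compared with that in Oligo3, the largest cluster with 7579 cells, and in Oligo4 with 1062 cells. The difference between clusters was taken within each mouse. For *C4b* the KO minus WT difference was 1.05 in Oligo2, 0.47 in Oligo3 and 1.24 in Oligo4. For *Serpina3n* it was 0.47, 0.09 and 0.30, from WT levels of 0.045, 0.017 and 0.003. With 1 added before the log, the same ratio gives a smaller difference at a lower level. The order of the clusters therefore need not hold for ratios, above all for *Serpina3n*. The WT levels of *C4b* were closer together, with 0.0772 in Oligo2, 0.0725 in Oligo3 and 0.0506 in Oligo4. KO cells assigned to Oligo1 are absent from each of these clusters. The differences of both genes were called as larger in Oligo2 than in Oligo3 (limma, adjusted p = 0.0153 each). They were larger by 0.58 with a standard error of 0.03 for *C4b* and by 0.38 with a standard error of 0.02 for *Serpina3n*. These were the 2 genes called of 9259 (0.0216%). Without any 1 mouse 0 genes were called, with adjusted p between 0.126 and 0.494 for these genes and differences between 0.55 and 0.62 and between 0.37 and 0.40. With the pair term 3 genes were called, the last being *Fabp5*, encoding a fatty acid binding protein, with a difference of -0.22 (adjusted p = 0.0409).

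Against Oligo4, 0 of 9408 genes were called by limma, and 482 had an unadjusted p under 0.05. *C4b* differed by -0.19 with a standard error of 0.06 (adjusted p = 0.939) and *Serpina3n* by 0.18 with a standard error of 0.03 (adjusted p = 0.908). Values of the other named genes stand side by side without a call. *Klk6* differed between genotypes by 0.35 in Oligo2, with 0.40 in WT and 0.75 in KO mice. In Oligo3 and Oligo4 it differed by 0.02 each, with WT levels of 0.014 and 0.005 and KO levels of 0.033 and 0.027. Levels so near 0 compress a difference on this scale, so these values do not show how the ratios compare. *Cebpd* differed by 0.11, 0.06 and 0.14, and *Masp1* by 0.18, 0.07 and 0.21. The lower gene 9330117O12Rik differed by -0.16, -0.19 and -0.18, and *Enho* by -0.14, -0.11 and -0.15. All these clusters came from the same mice.

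**Figure D4:**
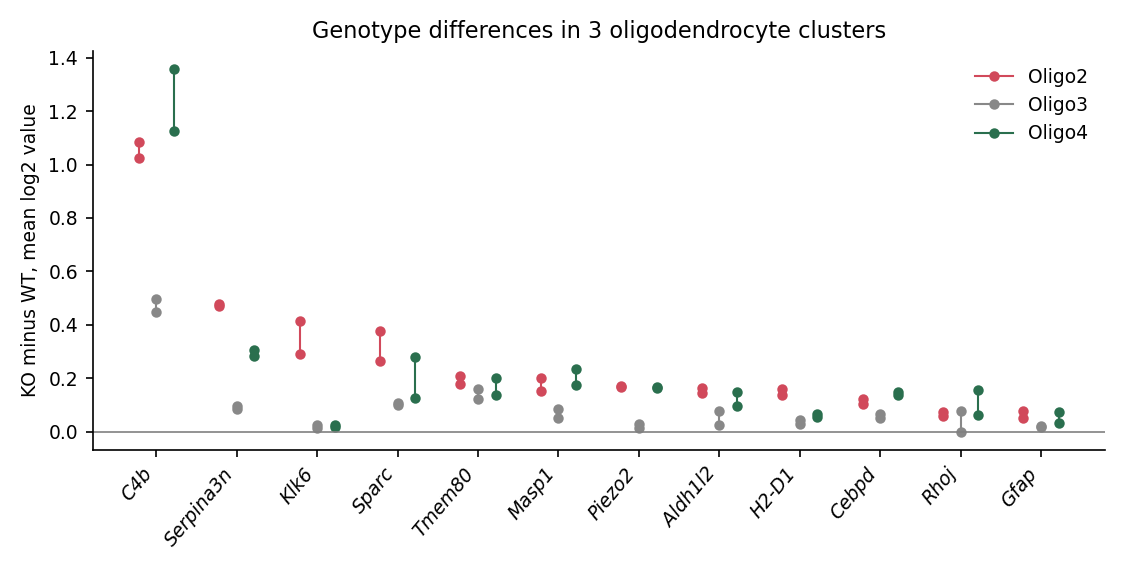
KO minus WT difference in mean log2 value (vertical axis) of the 12 higher genes (horizontal axis) in Oligo2, Oligo3 and Oligo4; the 2 joined points are mice 3 minus 1 and mice 6 minus 4. *C4b* and *Serpina3n* lie higher in Oligo2 than in Oligo3. *Klk6* differs by 0.35 in Oligo2 and by 0.02 in each of the others, where its WT levels of 0.014 and 0.005 are near 0.

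Between tissues, the genotype difference of *C4b* in Oligo2 was 1.24 in hippocampus and 0.87 in cortex, and that of *Serpina3n* was 0.55 and 0.40. Both genes were called in each tissue taken alone. The interaction of genotype and tissue was not called for any of 9292 genes by limma, and 600 had an unadjusted p under 0.05. It was 0.36 with a standard error of 0.45 for *C4b* (adjusted p = 0.942), 0.16 with a standard error of 0.09 for *Serpina3n* (adjusted p = 0.877), and 0.34 with a standard error of 0.07 for *Klk6* (adjusted p = 0.719).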

How the data were processed

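Cells of 4 mice (2 WT, 2 KO) were profiled in 8 libraries by the 10x Genomics 3′ droplet method, after dissociation with actinomycin D and sorting on scatter and viability. The authors counted UMIs with Cell Ranger 5.0.0 on mm10 (GRCm38), kept oligodendrocytes with at least 5000 UMIs and at most 10 percent mitochondrial UMIs, clustered them after batch correction, and normalised with scran. The deposited matrix covers 18833 genes as log2 values, in which 1 was added to each count after division by a size factor. A deposited table gives each cell's counts of UMIs, its mitochondrial percent, batch and cluster. UMI counts recovered from the log2 values were whole within 0.001 for all 42420937 values above 0, but summed to the deposited total in 11264 cells, with at least 99.172% recovered in the rest. Scatter gates excluded doublets, and no doublet caller was run.

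The members and the 37 gene lists were chosen with earlier results of these data known. Log2 values were averaged per library, then per mouse, and KO and WT mice were compared with limma 3.58.1 (R 4.3.3; prior variance following the mean, Benjamini-Hochberg threshold 0.05) for genes detected in 5% or more of Oligo2 cells over the 4 mice. Interactions were fitted on within-mouse differences between clusters or tissues. Pairs (mice 1 and 3, mice 4 and 6) follow the batch column and the ages in the labels. Across genes, the deviations of mouse 1 and mouse 3 from their group means had a correlation of 0.675, where genes are not independent and 2 mice per group give mirrored deviations. The named genes were *Csf1r*, *C4b*, *Serpina3n*, up to 12 genes in each direction past the threshold without overlap, filled to 12 by the smallest p among genes of 1 sign in all 4 batches, list members past the threshold or at the extremes of a list, and, for clusters, the genes past the threshold. Others with a batch term, *Fabp5* and some members of 1 sign in all batches were added after their values were seen. Shares have 95% Clopper-Pearson intervals, and beside a share of 0 stands what 3 cells would make. Coordinates are those of GENCODE for GRCm38. Limma was also run on simulated counts summed per mouse, without single cells or pairs of mice. That run does not cover means of log2 values over cells. Alternatives were blocks, edgeR 4.0.16 on UMI sums, another scale, filters, single tissues, thinning, subsets of cells, batch 6 left out and each mouse left out. The paper reports that batch 6 was of lower quality than its other batches. In the batch column this number marks the cortex libraries of mice 4 and 6, with median mitochondrial percents of 5.73 and 5.81. Without batch 6, limma called 2 genes in Oligo2.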

Additional observations from a re-analysis of the deposited data

Results flagged for a closer look

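The genotype differences of *C4b* and *Serpina3n* were larger in Oligo2 than in Oligo3, by 0.58 and 0.38 on the log2 scale, each with an adjusted p of 0.0153 from limma.

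In 62 sets of 4 libraries of a genotype, 7 had a library far from the others, where chance alone gives about 1 in 20 sets and the libraries of a mouse are not independent. The hippocampus of WT mouse 4 was the highest WT library for *Serpina3n*, with a mean log2 value of 0.11 and a UMI in 13.6% of cells, and for cells with UMIs of both *C4b* and *Serpina3n*, at 4.67%. Without that library the difference between genotypes in the share of cells with a UMI was 44.8 percentage points for *C4b* and 34.1 for *Serpina3n*, against 43.8 and 31.4 with it. The cortex of KO mouse 3 was the lowest KO library for *Sparc*, at 0.61, and for *Piezo2*, at 0.20. The hippocampus of KO mouse 3 was the highest KO library for *C1qb*, at 0.002, the other 3 being at 0. The hippocampus of KO mouse 6 was the highest for *Isoc1*, at 0.083.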

How the results depend on the processing

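The count of called genes in Oligo2, 2 as reported, was 11 with the pair as replicate block, 60 with batch as the block, 4 with edgeR, 0 with 1 prior variance for all genes, 1 without cells holding UMIs of both *C4b* and *Serpina3n*, and 5 in the smaller finer cluster alone, a setting added after seeing the data, as were the larger cluster and the library of WT mouse 4 left out. Leaving out each mouse gave 23 to 45 genes, in fits where the lone mouse of a genotype is assumed to vary like the other group. Against Oligo3 the 2 calls became 0 (0 to 0) without any 1 mouse, and 3 with the pair block. *C4b* passed in every alternative but that with 1 prior variance, and *Serpina3n* in all but that and the one without double-positive cells. The pairing changed no call of these genes, nor any count against Oligo4 or between tissues. The difference in median UMIs, -13.6, changed sign without WT replicate 4 (546.375) or KO replicate 3 (237.5), and ranged from -573.625 to 546.375. The shares of cells with a UMI kept their direction, at 36.6 to 46.9 percentage points for *C4b* and 23.3 to 34.4 for *Serpina3n*. With 2 mice per genotype only differences that are large against the spread between mice could be called. Batch, age and pair go together. The causes of the changed counts were not tested.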

Other observations

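Outside the lists, 2 genes chosen after their values were seen had large differences in Oligo2 with the batch term. *Neat1*, a nuclear long noncoding RNA, differed by 0.73 with a standard error of 0.20 (limma, adjusted p = 1.00, 0.427 with the pair term and 0.0255 with the batch term). Its values were 1.79 and 1.10 in WT and 2.12 and 2.24 in KO mice, and its batch differences were 0.51 and 0.15 between mice 3 and 1 and 1.02 and 1.25 between mice 6 and 4. *Tppp3*, a member of the tubulin polymerisation-promoting family, differed by 0.42 (limma, adjusted p = 1.00, 0.122 with the pair term and 0.0016 with the batch term).

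Haemoglobin transcripts in Oligo2 differed mainly between the pairs of mice. The erythrocyte markers summed to 6.76 to 27.0 per 10000 UMIs in the libraries of mice 1 and 3 and to 0.147 to 0.729 in those of mice 4 and 6. In hippocampus and cortex they were 27.0 and 6.76 in WT mouse 1, and 17.4 and 6.91 in KO mouse 3. In the other pair they were 0.311 and 0.147 in WT mouse 4, and 0.428 and 0.729 in KO mouse 6.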
